A study of Mus musculus with 96 samples.

Results

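The major urinary protein (Mup) genes were followed in hepatocytes and liver macrophages of mice lacking clock repressors, with or without the lipid regulator SCAP. Mup1, Mup2, Mup3, Mup7, Mup17, Mup20 and Mup21 were described, 7 of the 22 Mup symbols and of the 25095 gene symbols in the tables, each by its transcript of highest mean. The list was chosen by measured values of these libraries, the low Mup17 in both REV-ERB knockout genotypes and the time course of Mup7 with SCAP deleted as well. Comparisons of Mup17 with Control, and of Mup7 over time between the knockout genotypes, are therefore given as values without a test. All 7 genes passed the low-value filter (above 5 RPKTM, reads per kilobase of transcript scaled to the library total, in at least 3 libraries) in hepatocytes and in macrophages. Mup17 was above 5 RPKTM in 23 of 36 hepatocyte libraries, all 12 Control ones among them, and in 7 of 36 macrophage libraries, all of them Control, so in macrophages it passed only through the genotype in which it was high.

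Major urinary proteins are lipocalins, small barrel-shaped carriers of hydrophobic molecules. The liver secretes them into blood, the kidney passes them into urine, and there they hold and slowly release volatile pheromones. They lie as a cluster of recent duplicates on mouse chromosome 4, and in liver most are more abundant in males, under pulsed growth hormone acting through the transcription factor STAT5b.

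The series held 96 libraries of male C57BL/6J mice that had eaten a high fat, high sucrose diet over 4 weeks. Control mice carried the floxed alleles and received a virus expressing GFP from the hepatocyte promoter TBG. In the groups labelled ReverbhDKO (RevDKO here), Reverb/ScaphTKO (RevScapTKO) and ScaphKO (ScapKO), the same promoter drove Cre to delete Nr1d1 and Nr1d2 (which encode REV-ERBα and REV-ERBβ), these with Scap, or Scap alone, so that macrophages kept the genes and served as cells exposed to altered hepatocytes. Hepatocytes and liver macrophages were each sampled at zeitgeber times ZT4, ZT10, ZT16 and ZT22, with lights off at ZT12, in 3 libraries a group. The ScapKO libraries were normalized apart from the others and are compared only among themselves. Their hepatocyte set is named by its titles, since its cell type field reads macrophage.

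Every library of a table carried the same set of values after quantile normalization, so sequencing depth was unknown and no interval for counting error could be given. Scap was lower in RevScapTKO hepatocytes (82.8 to 299 RPKTM) than in Control hepatocytes (395 to 698). Nr1d1 and Nr1d2 transcripts were not lower in the libraries labelled RevDKO: the Nr1d1 median was 45.9 RPKTM in Control and 91.3 in RevDKO, and that of Nr1d2 was 218 and 320. A value over a whole transcript does not show whether the floxed exons were gone, so the REV-ERB labels were not checked here. Hepatocyte markers dominated the hepatocyte libraries, with median sums over 12 markers of 589610, 526735 and 554135 RPKTM in Control, RevDKO and RevScapTKO. The macrophage libraries held the same markers at median sums of 98467, 89632 and 102276 RPKTM on their own scale, beside macrophage-marker sums of 19556, 10170 and 10959. None of the hepatocyte markers was at 0 in any macrophage library.

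How far the 7 genes can be told apart depends on their sequences. From the Mup17 start codon onward, coding bases 4 to 93 of Mup17 and its close copies Mup1, Mup2 and Mup7 are shown with the matching stretch of Mup20 and Mup3, because a read from here would or would not identify its gene. Capitals mark bases that differ from Mup17, or are absent from it, in a pairwise alignment.
Mup17 coding: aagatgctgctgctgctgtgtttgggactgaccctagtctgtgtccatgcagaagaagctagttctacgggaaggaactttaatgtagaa
Mup1 coding: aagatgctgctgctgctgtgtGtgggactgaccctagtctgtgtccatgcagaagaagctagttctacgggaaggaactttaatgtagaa
Mup2 coding: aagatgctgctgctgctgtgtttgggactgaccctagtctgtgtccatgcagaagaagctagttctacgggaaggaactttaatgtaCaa
Mup7 coding: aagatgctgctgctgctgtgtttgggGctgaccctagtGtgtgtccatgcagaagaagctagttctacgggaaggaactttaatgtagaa
Mup20 coding: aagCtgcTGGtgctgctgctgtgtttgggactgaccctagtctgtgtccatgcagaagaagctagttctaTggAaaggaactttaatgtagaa
Mup3 coding: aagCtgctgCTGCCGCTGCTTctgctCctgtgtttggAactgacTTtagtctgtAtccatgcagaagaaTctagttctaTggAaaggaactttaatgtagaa
Across the whole coding sequence (543 bases in Mup17), Mup1, Mup2, Mup7 and Mup17 were 98.7% to 99.4% identical to each other. Mup20 matched Mup17 at 91.0% of alignment columns. Mup3 matched Mup1 at 83.0% and Mup21 at 94.8%, so Mup3 and Mup21 form a pair apart.

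Reads shared between copies were a concern for some members and not for others. Of the 50-base windows along the transcript, 100% of those in Mup2 occurred in at least one other gene, as did 94.8% in Mup1, 94.3% in Mup7 and 78.1% in Mup17. The share was 19.1% in Mup21, 15.9% in Mup3 and 4.66% in Mup20, and with 100-base windows it was 4.50%, 3.10% and 0%. Every shared window lay within another Mup gene. Only protein-coding transcripts of GENCODE vM1 were searched, so pseudogenes, noncoding transcripts and the rest of the genome were not covered. How reads that fit several places were counted is not given in the sources used here. Values of Mup1, Mup2, Mup7 and Mup17 may thus hold reads of one another or of further copies, and the Mup2 record was counted over 3 copies in mm9 whose listed position differed between tables. Mup20, Mup3 and Mup21 can be read as single genes to the extent of their unshared windows, and only as far as protein-coding transcripts go.

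**Figure D1:**
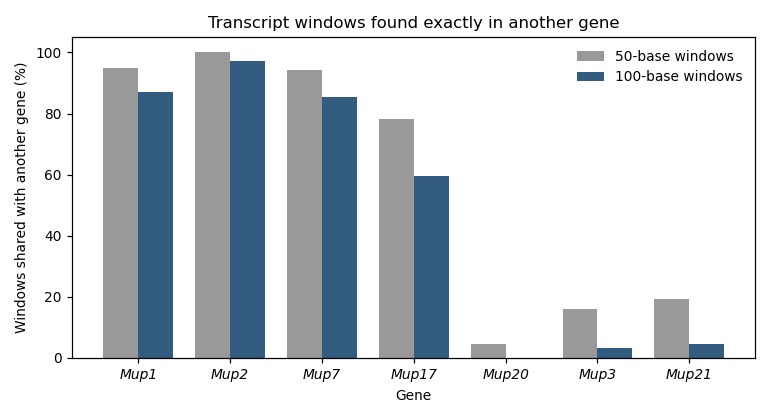
Percentage of 50-base (grey) and 100-base (blue) windows of each transcript found exactly in at least one other protein-coding gene. Mup1, Mup2, Mup7 and Mup17 stand between 59.4% and 100%, and Mup20, Mup3 and Mup21 at 19.1% or below.

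The 150 bases before the transcription start are shown for 2 members that were low without REV-ERBs (Mup17, Mup2), for Mup3, and for 2 that were high (Mup21, Mup20). They come from mm9 (NCBIM37) with GENCODE vM1 starts, minus strand, and capitals again mark bases unlike Mup17. For Mup2 the GENCODE start differs from the position of the measured hepatocyte record, listed at chr4:60961984-61100734 and counted over 3 copies. The Mup2 stretch shown therefore need not precede the copy whose values were low.
Mup17 upstream, chr4:61256904-61257053: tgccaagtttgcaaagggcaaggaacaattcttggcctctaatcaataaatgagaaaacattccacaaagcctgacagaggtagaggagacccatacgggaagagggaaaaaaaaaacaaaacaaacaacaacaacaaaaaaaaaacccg
Mup2 upstream, chr4:60152770-60152919: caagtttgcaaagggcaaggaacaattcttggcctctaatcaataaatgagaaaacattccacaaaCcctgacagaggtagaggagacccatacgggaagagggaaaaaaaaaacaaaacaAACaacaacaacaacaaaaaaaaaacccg
Mup3 upstream, chr4:61748377-61748526: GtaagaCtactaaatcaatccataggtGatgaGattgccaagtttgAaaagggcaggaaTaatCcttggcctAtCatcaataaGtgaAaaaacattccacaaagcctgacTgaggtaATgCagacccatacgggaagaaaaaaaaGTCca
Mup21 upstream, chr4:61811898-61812047: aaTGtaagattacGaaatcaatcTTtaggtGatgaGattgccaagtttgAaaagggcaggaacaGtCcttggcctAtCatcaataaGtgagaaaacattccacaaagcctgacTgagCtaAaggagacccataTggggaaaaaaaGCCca
Mup20 upstream, chr4:61715193-61715342: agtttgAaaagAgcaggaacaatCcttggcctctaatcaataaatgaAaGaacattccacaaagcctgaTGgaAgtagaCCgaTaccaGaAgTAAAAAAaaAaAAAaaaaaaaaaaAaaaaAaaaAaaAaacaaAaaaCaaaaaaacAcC
Over 250 bases upstream, Mup2 and Mup17 were 96.8% identical and Mup3 and Mup21 91.3%, while Mup20 and Mup21 were 56.5% identical. The alignment in the A-rich stretch of Mup20 is approximate. In these 250-base windows, on both strands, none of the 7 genes held the letters TTCNNNGAA of a STAT5 element, the nuclear receptor half-site AGGTCA, the D-box TTATGTAA or the E-box CACGTG. Of 22375 promoters of the same length, 6.83%, 12.6%, 0.863% and 6.52% held them.

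In Control hepatocytes, Mup3 was by far the most abundant of the 7 genes, with 8942, 12016 and 17626 RPKTM as lowest, median and highest of 12 libraries. Mup20 (827, 1290 and 2221 RPKTM) and Mup7 (362, 1147 and 4273) came next and overlapped each other. Mup21 had a median of 153 RPKTM, Mup17 of 106, Mup1 of 90.3 and Mup2 of 88.9, and the ranges of these 4 genes overlapped. The value 17626 is the highest Mup3 value in each of the 3 genotypes because quantile normalization gives the same rank the same value.

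Mup17 had the widest gap between genotypes. Its 12 Control hepatocyte libraries ran from 16.1 to 579 RPKTM with a median of 106. In RevDKO the lowest, median and highest were 1.01, 3.07 and 10.1 RPKTM, so all 12 libraries lay below the lowest Control library. In RevScapTKO they were 0.183, 5.50 and 34.2 RPKTM, and 10 of 12 libraries lay below Control. On the log2(RPKTM + 1) scale the day average, the mean over the 4 times, differed from Control by −4.65 in RevDKO and by −4.10 in RevScapTKO, values that chose the list and carry no test. The size depends on the pseudocount: with 10 RPKTM in place of 1 the first difference was −3.20. Between the knockout genotypes, a comparison that did not use Control, RevScapTKO was +0.56 ± 0.47 (limma SE) against RevDKO (adjusted p = 0.407, limma).

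Mup2, whose transcript holds no 50-base window of its own, moved the same way. Its values may hold reads of Mup17, whose low values against Control chose the list. Tests of Mup2 against Control are therefore not independent of that choice. Mup2 had 24.6, 88.9 and 360 RPKTM in Control, 9.26, 21.1 and 47.2 in RevDKO, and 1.27, 30.4 and 181 in RevScapTKO. In RevDKO 8 of 12 libraries lay below every Control library, and in RevScapTKO 5 of 12. Mup2 fell by 2.14 ± 0.46 (log2, adjusted p = 0.00308) in RevDKO against Control and by 1.99 ± 0.46 (adjusted p = 0.00107) in RevScapTKO against Control, 2 comparisons that share the Control libraries. The second call was not kept when a macrophage-marker score entered the fit (−1.17, limma adjusted p = 0.323). This score is the mean log2(RPKTM + 1) over 12 macrophage markers. The difference between RevScapTKO and RevDKO was 0.14 ± 0.46 without it.

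**Figure D2:**
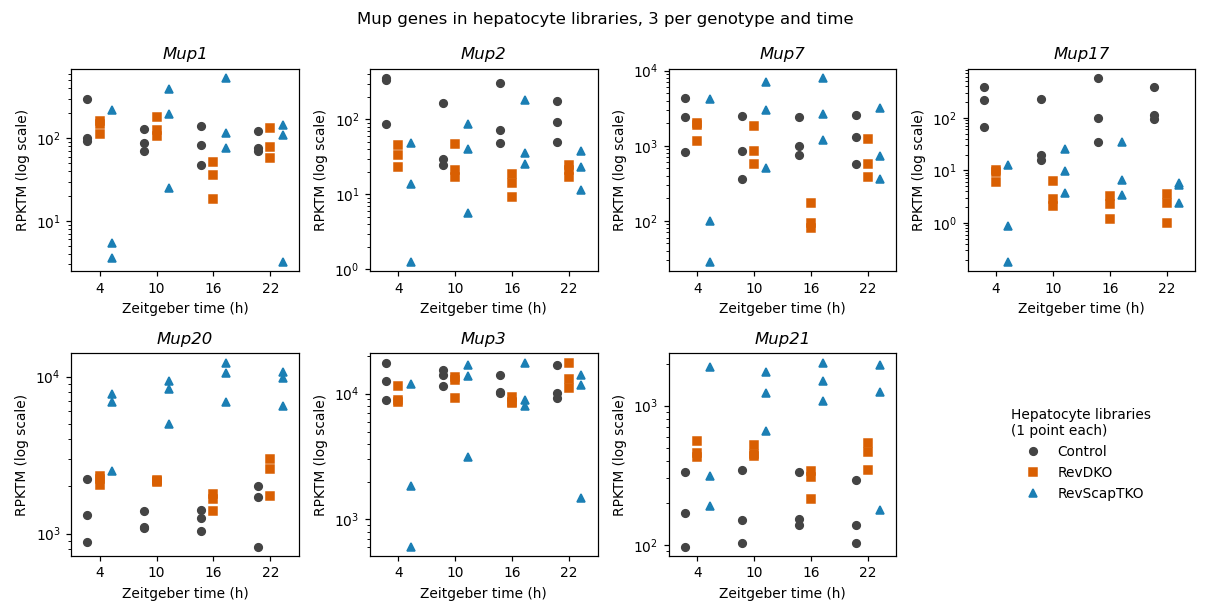
RPKTM on a log scale against zeitgeber time (h) in hepatocytes, 1 panel a gene and 1 point a library, with Control as grey circles, RevDKO as orange squares and RevScapTKO as blue triangles, set side by side at each time. Mup17 points of RevDKO stay at or below 10.1, Mup20 points of RevScapTKO stay at or above 2496, and some RevScapTKO libraries stand far below the rest in Mup1, Mup3 and Mup7.

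Mup20 and Mup21 went up where Mup17 and Mup2 were down. Mup20, known as darcin, is a male urinary pheromone protein that draws females to scent marks. Its lowest, median and highest hepatocyte values were 827, 1290 and 2221 RPKTM in Control, 1404, 2148 and 2966 in RevDKO, and 2496, 7997 and 12270 in RevScapTKO. All 12 RevScapTKO libraries were above all Control libraries, and 11 of 12 were above all RevDKO libraries. Mup20 rose by 0.67 ± 0.18 (log2) from Control to RevDKO (adjusted p = 0.0192), by a further 1.86 ± 0.18 from RevDKO to RevScapTKO (adjusted p = 1.57e-09) and by 2.53 ± 0.18 from Control to RevScapTKO (adjusted p = 7.6e-13), the last being 5.77-fold on this scale. With the macrophage-marker score in the fit, these differences were 0.65, 1.73 and 2.38.

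Mup21 showed the same order at lower levels. Control libraries held 97.4, 153 and 342 RPKTM as lowest, median and highest, RevDKO libraries 212, 443 and 557, and RevScapTKO libraries 179, 1248 and 2033. In RevDKO 9 of 12 libraries were above all Control libraries, and in RevScapTKO 9 of 12 were above all RevDKO libraries while 2 were below all of them. Mup21 rose by 1.21 ± 0.33 from Control to RevDKO (adjusted p = 0.0277), by 1.113 ± 0.33 from RevDKO to RevScapTKO (adjusted p = 0.0134) and by 2.32 ± 0.33 over both (adjusted p = 3.16e-06). The first of these calls is narrow: the adjusted p became 0.0504 to 0.0649 when any of 6 libraries was left out, namely Control ZT4 replicate 1, Control ZT10 replicate 2, Control ZT16 replicate 2 or 3, Control ZT22 replicate 1 or RevDKO ZT16 replicate 1. Without a filter on low values, the RevDKO calls of Mup20 and Mup21 were lost (adjusted p = 0.0702 and 0.110).

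Mup3, the most abundant member, differed less in its medians than in its spread. Its lowest, median and highest values were 8942, 12016 and 17626 RPKTM in Control, 8405, 10220 and 17626 in RevDKO, and 610, 10325 and 17626 in RevScapTKO. The genotypes overlapped over most of their range, with 5 of 12 RevScapTKO libraries below all Control libraries. Mup3 was −0.19 ± 0.35 in RevDKO against Control (adjusted p = 0.854) and −0.80 ± 0.35 in RevScapTKO against RevDKO (adjusted p = 0.0870), and it fell by 0.99 ± 0.35 in RevScapTKO against Control (adjusted p = 0.0261). This last call rested on single libraries: without RevScapTKO ZT4 replicate 2, ZT10 replicate 2 or ZT22 replicate 2 the difference was −0.80 to −0.73 and the adjusted p 0.0650 to 0.0672. It also turned to 0.07 (adjusted p = 0.956) with the macrophage-marker score as a covariate. Against RevDKO, the difference passed the threshold without RevScapTKO ZT4 replicate 1 (−1.09, adjusted p = 0.00509) or ZT22 replicate 1 (−0.95, adjusted p = 0.0426).

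Mup7 and Mup1 varied widely and had no called day-average difference. Mup7 held 362, 1147 and 4273 RPKTM in Control, 79.4, 717 and 1988 in RevDKO, and 28.6, 1936 and 8046 in RevScapTKO. Mup1 held 47.2, 90.3 and 298 RPKTM in Control, 18.6, 111 and 182 in RevDKO, and 3.23, 112 and 538 in RevScapTKO. For both genes the 3 genotypes overlapped. Mup7 was −1.16 ± 0.56 in RevDKO against Control (adjusted p = 0.289), a call only in the fit of those 2 genotypes alone (adjusted p = 0.0330). Its interval against Control in RevScapTKO was −1.40 to 0.90, and that of Mup1 was −1.75 to 0.46, so differences of this size in either direction could not be resolved.

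In numbers, 2 of the 6 members counted were higher and 1 lower in RevDKO against Control hepatocytes, where 4.43% of all 13326 genes tested were called, 2% higher and 2.43% lower. Against RevDKO, 2 of 7 were higher and none lower in RevScapTKO (26.2% of all genes called, 13.5% higher and 12.7% lower, with 1 of the 7 lower at an unadjusted p, which 38% of genes passed). Against Control, 2 of 6 were higher and 2 lower in RevScapTKO (35.9% of all genes called, 17.3% higher and 18.7% lower). The count of 2 of 7 is close to the share among all genes, and the counts of 3 of 6 and 4 of 6 are above theirs, over few genes that in part share reads. Mup2 is the 1 lower in RevDKO and 1 of the 2 lower in RevScapTKO against Control. It may hold reads of Mup17, so these 2 counts are not independent of the choice of list. In the 3 comparisons 0.360%, 0.758% and 0.991% of all genes had 12 libraries of each genotype that did not overlap. Among the members, none did so in the second and Mup20 did in the third. Mup17 did in the first, where its values chose the list, so this is a description and not a result.

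**Figure D3:**
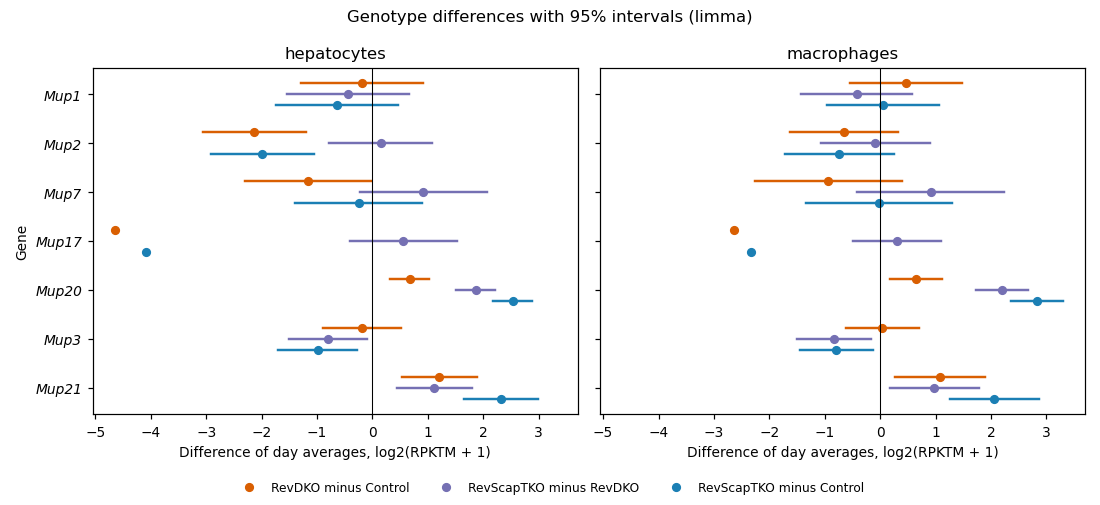
Difference of day averages on the log2(RPKTM + 1) scale (points) with 95% limma intervals (lines) for each gene in hepatocytes (left) and macrophages (right), RevDKO minus Control in orange, RevScapTKO minus RevDKO in purple and RevScapTKO minus Control in blue. Mup20 lies to the right of 0 in each comparison in both cell types, and the intervals of Mup1 cross 0 throughout. Mup17 minus Control is drawn as points without intervals, since the list was chosen on these values. The intervals are not adjusted for the number of genes.

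Macrophage markers moved with these genotype differences in the hepatocyte libraries. Their sum over 12 markers was 379 to 3730 RPKTM in Control (median 1097), 634 to 2950 in RevDKO (median 1411) and 1171 to 7525 in RevScapTKO (median 3644), and no marker of the list was at 0. By the same limma test, 11 of 12 were higher in RevScapTKO than in RevDKO and 12 of 12 higher than in Control, with 0 of 12 called between RevDKO and Control. Stellate cell markers were higher in 7 of 8 and endothelial markers in 6 of 8 in RevScapTKO against RevDKO. Hepatocyte markers were lower in 4 of 12 and higher in 0 (12.7% and 13.5% of all genes). Macrophage-marker sums also differed by time, with 379 to 946 RPKTM at ZT4 and 2576 to 3730 at ZT22 in Control. In RevDKO they were 831 to 1123 and 1966 to 2950, and in RevScapTKO 1229 to 3192 and 4444 to 7525. Their part in the time courses below was not tested. In bulk libraries, fewer cells of a type and less RNA per cell cannot be told apart. The part of these markers in the Mup differences was not tested beyond the covariate values given above, with which Mup20 and Mup21 kept every call and Mup2 and Mup3 lost theirs against Control in RevScapTKO.

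Whether members responded by different amounts was tested within libraries, on the log2 difference of each pair of genes, with genotype labels permuted within each time (exact, two-sided, 160000 arrangements, adjusted over 63 tests). Of the pairs without Mup17, 13 of 15 differed in response between RevDKO and Control. Between RevScapTKO and RevDKO 13 of all 21 pairs differed, and between RevScapTKO and Control 11 of 15. The pairs reuse the same few genes, so 1 gene that moves apart makes several pairs differ. The share among pairs drawn from all genes is not given, and the counts are no result about the members. Mup1, Mup2 and Mup7 may hold reads of Mup17, so their pairs against Control are not independent of the choice of list. Mup2 against Mup20 changed by −2.80 in RevDKO (adjusted exact permutation p = 4.375e-05, the raw p of 1.25e-05 being the smallest possible). Mup1 against Mup3 moved by −0.01 in that comparison (exact permutation p = 0.969), and these genes are 83.0% identical. The similar pair Mup3 and Mup21 parted by −1.91 between RevScapTKO and RevDKO (adjusted exact permutation p = 4.375e-05), and the near-identical pair Mup1 and Mup2 by 1.94 between RevDKO and Control (adjusted exact permutation p = 4.375e-05).

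The make-up of the Mup output shifted accordingly. The ratio of Mup20 to Mup3 within a hepatocyte library was 0.0698, 0.0991 and 0.184 (lowest, median, highest) in Control. It was 0.156, 0.186 and 0.260 in RevDKO and 0.296, 1.04 and 4.37 in RevScapTKO, so every RevScapTKO library was above every RevDKO library. Mup3 against Mup20 differed by −2.66 between these genotypes on the log2 scale (adjusted exact permutation p = 4.375e-05). Mup20 made up 8.37% of the summed RPKTM of the 7 genes in the median Control library, 14.3% in RevDKO and 42.8% in RevScapTKO. The sum itself had medians of 14099, 13884 and 24763 RPKTM and ranged from 3328 to 34377 in RevScapTKO.

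**Figure D4:**
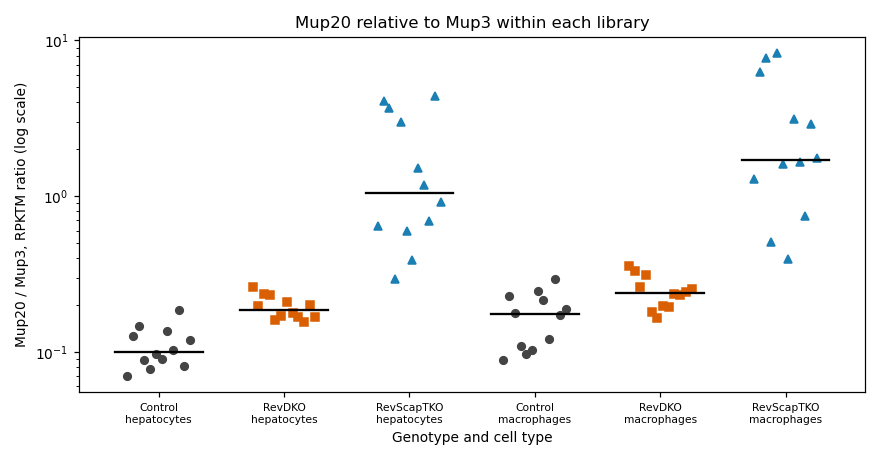
Ratio of Mup20 to Mup3 RPKTM on a log scale, 1 point a library and 12 libraries a column, with a black line at the median, by genotype and cell type. The RevScapTKO median is the highest of the 3 genotypes in each cell type, 1.04 in hepatocytes and 1.71 in macrophages, and the cell types were normalized apart.

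Time of day was examined next, since REV-ERBs are clock repressors and the study sampled the light and dark phases. In RevDKO hepatocytes, Mup7 read 1988, 1170 and 1911 RPKTM at ZT4, 1812, 864 and 571 at ZT10, 79.4, 173 and 93.9 at ZT16, and 565, 383 and 1237 at ZT22. The 3 ZT16 libraries were the lowest of the 12, and the highest time mean was 14.6 times the lowest. Mup1 likewise was lowest at ZT16 (36.5, 51.4 and 18.6 RPKTM) and highest at ZT4 (149, 114 and 160) by time mean. Mup20 had the mildest course, with time means of 2196, 2160, 1613 and 2427 RPKTM.

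JTK_CYCLE, a rank test for cyclic series, followed the study in outline, with each 12-library series entered 2 times, which lowers p. Periods of 18 h and 24 h were tried here. A call needed a best period of 24 h and at least 2 libraries above 5 RPKTM. The study words its period range and expression filter otherwise, so its shares of rhythmic genes may differ. Mup7 is left out of the counts in both knockout genotypes, because its time course there helped choose the list. By this rule 5 of the other 6 members cycled in RevDKO hepatocytes, Mup3 being the exception, where 24.9% of genes measured did, and their fitted peak was at ZT4. Of these, Mup1, Mup2 and Mup17 may hold reads of Mup7, so their calls are not independent of its time course. Mup20 passed narrowly, with a time-mean ratio of 1.504 beside the threshold of 1.5 (JTK_CYCLE adjusted p = 0.0408). None of 7 cycled in Control hepatocytes (24.8% of genes) and none of those 6 in RevScapTKO hepatocytes (16%). With the series entered once, none of the 6 cycled in RevDKO (3.84% of genes) or RevScapTKO (1.5%), and none of 7 in Control (4.35%). By a limma 24 h test adjusted over all genes, none of the 56 member series of all genotypes and cell types passed. That test called 8.29%, 4.08% and 0.683% of genes in Control, RevDKO and RevScapTKO hepatocytes, 0.0502%, 2.53% and 0.0789% in macrophages, and 1.85% and 0% in ScapKO hepatocytes and macrophages. A cycle in one genotype and not in another does not show a difference between them. The direct test of a changed 24 h pattern called no member in hepatocytes. For RevDKO against Control, where 0.203% of all genes were called, 6 members were counted. Mup7 was among these, though its RevDKO time course helped choose the list. For RevScapTKO against RevDKO 0.00% of genes were called, and 5.06% passed at an unadjusted p. For Mup7, RevScapTKO minus RevDKO was −2.83 at ZT4, 1.188 at ZT10, 4.75 at ZT16 and 0.55 at ZT22, values given as a description.

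At single times, Mup20 was the one member called, of the 6 counted without Mup7, between RevScapTKO and RevDKO hepatocytes. It was higher by 1.22 ± 0.35 at ZT4 (adjusted p = 0.0277, 9.28% of genes called), by 1.75 at ZT10 (0.908%), by 2.58 at ZT16 (1.37%) and by 1.89 at ZT22 (2.35%). Against Control, RevScapTKO hepatocytes had 8 calls among the 20 combinations of 4 times with the 5 members other than Mup17 and Mup7. Mup20 was higher at every time, by 1.89 at ZT4 (18.9% of genes called), 2.62 at ZT10 (4.35%), 2.97 at ZT16 (3.24%) and 2.63 at ZT22 (3.62%). Mup21 was higher by 2.68 at ZT10 and 2.94 at ZT16, and at ZT4 Mup2 (−4.21) and Mup3 (−2.40) were lower. The Mup2 call is not independent of the choice of list, since it may hold reads of Mup17. Mup7 at ZT4 was −3.15, given as a description because its time course in RevScapTKO helped choose the list. Between RevDKO and Control none of the same 20 combinations was called by limma, where 0.585%, 1.2%, 0.300% and 0.488% of genes were at ZT4, ZT10, ZT16 and ZT22. At an unadjusted p 9 of 24 passed with Mup7 counted as well, where 9.53%, 8.18%, 5.67% and 8.38% of genes did. Among the 9 was Mup7 at ZT16 (−3.47), a description only, because its time course in RevDKO helped choose the list.

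The low ZT4 values of RevScapTKO came from 2 of its 3 libraries. At ZT4, Mup3 read 11909 RPKTM in replicate 1, 610 in replicate 2 and 1861 in replicate 3. Mup7 read 4140, 28.6 and 99.3 RPKTM in the same libraries, and Mup1 218, 3.54 and 5.43. Replicate 2 at ZT10 and replicate 2 at ZT22 were low as well, with 3141 and 1478 RPKTM of Mup3 and 25.1 and 3.23 of Mup1. Mup20 in these 4 libraries was 2496, 6877, 9356 and 6461 RPKTM, above every Control library. The lowest Mup3 values of Control and RevDKO were 8942 and 8405 RPKTM, so no library of those genotypes was as low.

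The same libraries were extreme in Cyp2a4, a steroid-hydroxylating cytochrome P450 that is higher in female than in male mouse liver. Cyp2a4 was named after its values were seen and does not stand for other female-biased genes. Of 11 such genes measured, it alone was called higher in RevScapTKO than in RevDKO, and 4 were called lower. The list median was −0.32, and 13.5% and 12.7% of all genes were called higher and lower. Cyp2a4 ran from 2.16 to 21.3 RPKTM in Control, from 18.3 to 51.8 in RevDKO and from 41.5 to 13136 in RevScapTKO. It was 13136 RPKTM at ZT4 replicate 2, 6031 at ZT4 replicate 3, 11707 at ZT10 replicate 2 and 12963 at ZT22 replicate 2. In contrast, RevScapTKO ZT16 replicate 1, which had the highest Mup3 (17626) and Mup7 (8046) of its genotype, had the lowest Cyp2a4, 41.5 RPKTM. Both ZT16 replicates 2 and 3 lay between, with 2466 and 1929 RPKTM of Cyp2a4 beside 8046 and 8942 of Mup3. Macrophage-marker sums were 1651, 3192, 4097 and 7525 RPKTM in the 4 libraries named first and 2393 in ZT16 replicate 1, and their part in this was not tested.

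**Figure D5:**
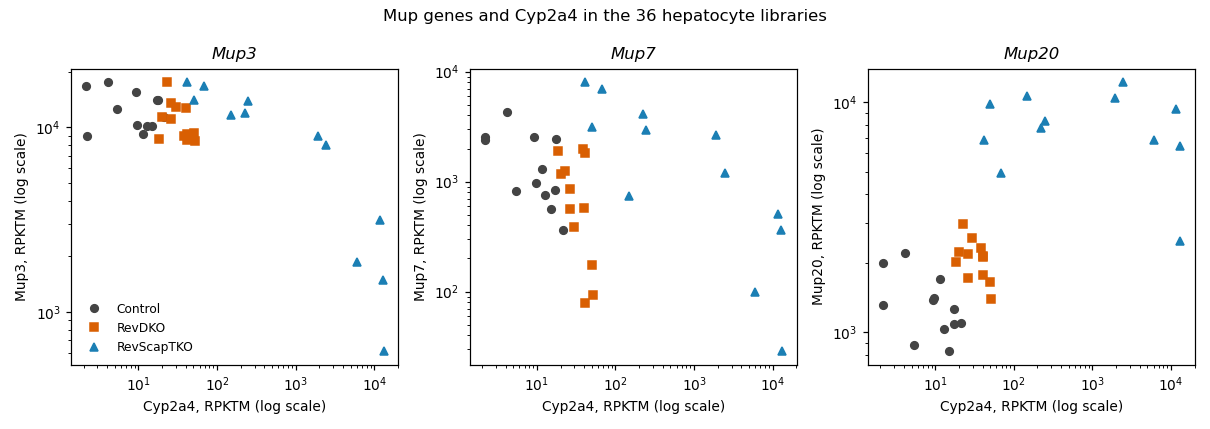
RPKTM of Mup3, Mup7 and Mup20 against RPKTM of Cyp2a4, both on log scales, in the 36 hepatocyte libraries (1 point each; grey circles Control, orange squares RevDKO, blue triangles RevScapTKO). RevScapTKO points run from high Mup3 at low Cyp2a4 (17626 and 41.5) to low Mup3 at high Cyp2a4 (610 and 13136), while the Mup20 points of that genotype stay between 2496 and 12270. Cyp2a4 was picked after its values were seen. Of 11 female-biased genes measured, 1 was called higher and 4 lower in RevScapTKO than in RevDKO.

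In the macrophage libraries, the Mup transcripts were present at lower levels than in hepatocytes, each on the scale of its own table. Mup20 read 72.2 to 632 RPKTM in Control (median 168), 79.9 to 737 in RevDKO (median 304) and 440 to 2696 in RevScapTKO (median 1533). Of the 12 RevScapTKO libraries, 11 were above all Control and all RevDKO libraries. Mup20 rose by 2.19 ± 0.23 in RevScapTKO against RevDKO (adjusted p = 5.96e-08) and by 2.83 ± 0.23 against Control (adjusted p = 1.29e-10). With the hepatocyte-marker score as a covariate the differences were 2.598 and 3.05. Both calls were also made without the 3 macrophage libraries of highest Alb, a step chosen after the data were seen. Hepatocyte-marker sums reached 2410960 RPKTM in Control ZT22 replicate 1, 1608320 in Control ZT16 replicate 1 and 1610970 in RevScapTKO ZT22 replicate 3. Such sums depend on the top ranks, since the highest value alone is 27.5% of a library after quantile normalization. The mean log2(RPKTM + 1) of these markers was 10.58, 11.12 and 11.41 there, beside medians of 10.51 in Control and 10.42 in RevScapTKO. Whether any Mup RNA here was made in macrophages was not tested.

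Mup21 rose in RevScapTKO macrophages against Control by 2.06 ± 0.40 (adjusted p = 0.00124), and was 0.98 ± 0.40 against RevDKO (adjusted p = 0.159). Mup17 read 0 to 31.0 RPKTM in Control macrophage libraries and was listed at 0 in 9 of 12 RevDKO libraries, the others holding 1.03, 1.20 and 3.29 RPKTM. Leaving Mup17 out, 0 of 6 members were called between RevDKO and Control (0.574% of 13947 genes), 1 of 6 between RevScapTKO and RevDKO (3%) and 2 of 6 between RevScapTKO and Control (3.76%). Of those 6, 2 passed between RevDKO and Control at an unadjusted p (13.9% of genes), Mup20 (0.64, adjusted p = 0.221) and Mup21 (1.08, adjusted p = 0.231), and both were called without Control ZT22 replicate 3 (adjusted p = 0.0471 and 0.0280). Without RevScapTKO ZT4 replicate 1, Mup3 was called as lower against RevDKO (−1.07, adjusted p = 0.0398) and against Control (−1.03, adjusted p = 0.0446).

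The libraries with low Mup3 in RevScapTKO hepatocytes had macrophage counterparts of the same number and time that were low too. Mup3 in those was 136 and 202 RPKTM at ZT4 replicates 2 and 3, 146 at ZT10 replicate 2 and 623 at ZT22 replicate 2, in a genotype that ranged from 136 to 2734. Over the 12 same-numbered hepatocyte and macrophage libraries of RevScapTKO, Pearson's r was 0.81 for Mup3, 0.79 for Mup2 and 0.78 for Mup7, and for Mup3 it was 0.03 in Control and 0.28 in RevDKO. These are descriptions over 12 points, and the labels do not say that a shared number marks one mouse. By the doubled JTK_CYCLE rule 3 of 7 members cycled in Control macrophages (15.2% of genes), as did 2 of the 6 measured in RevDKO (21.8%) and 3 of the 6 measured in RevScapTKO (11.7%), Mup17 being too low to count in either. None did with the series entered once (1.05%, 1.56% and 0.829% of genes). The part of hepatocyte RNA in these time courses was not tested.

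ScapKO mice, labelled as lacking Scap alone, could be described within their tables only. Scap read 205 to 1006 RPKTM in their hepatocytes (median 345), a table with no Control library to set it against, so this label was not checked here. In ScapKO hepatocytes the lowest, median and highest values were 47990, 59575 and 71789 RPKTM for Mup3, 13153, 25543 and 37950 for Mup20, and 200, 1815 and 9145 for Mup17. Their medians were 10040 RPKTM for Mup7, 1415 for Mup21, 245 for Mup1 and 29.0 for Mup2. Mup3, Mup20, Mup7 and Mup17 thus followed each other in that order by median. Within these libraries the ratio of Mup20 to Mup3 ran from 0.215 to 0.709 with a median of 0.437. In 1 ScapKO hepatocyte library, ZT16 replicate 3, the female-specific RNA Xist was at 130 RPKTM beside at most 15.0 in the other 11, and its Mup3 (61297 RPKTM), Mup20 (33911) and Mup7 (7590) lay within the range of the others. The Y-linked genes Ddx3y (475 RPKTM), Uty (242), Kdm5d (148) and Eif2s3y (249.7) lay within the range of the other 11 as well.

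In ScapKO macrophages, 5 of 7 members cycled by the doubled JTK_CYCLE rule, all with a peak at ZT22 (17.2% of genes). Mup20 was 835, 1591 and 691 RPKTM at ZT4, 661, 550 and 717 at ZT10, 1677, 1152 and 1067 at ZT16, and 2658, 3175 and 1708 at ZT22. The ZT22 libraries were the 3 highest of the 12. With the series entered once, Mup20 (adjusted p = 0.00227) and Mup21 (adjusted p = 0.00606) remained, against 2% of genes. Hepatocyte markers also differed by time in these libraries. Their mean log2(RPKTM + 1) was 10.18 to 12.14 at ZT4, 9.49 to 10.04 at ZT10, 9.84 to 11.40 at ZT16 and 10.36 to 12.48 at ZT22. The macrophage-marker sum was 25606 RPKTM at ZT22 replicate 2, beside 95136.5 or more in the other libraries. The part of hepatocyte RNA in these time courses was not tested. In ScapKO hepatocytes 1 of 7, Mup21, cycled by the doubled rule (15.6% of genes) and none did with the series entered once (2.70%).

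Beyond the 7 members, the tables list 15 Mup symbols, with means in hepatocytes from 0.255 to 2000 RPKTM. The 3 of highest mean were Mup22 (2000 RPKTM), Mup10 (1966) and Mup11 (893), and 11 passed the filter. In RevDKO against Control 2 of these 11 fell, Mup11 by 2.27 ± 0.53 (adjusted p = 0.00798) and Mup14 by 1.666 ± 0.40 (adjusted p = 0.0102), and the other 9 had negative differences that were not called. The same 2 genes rose again in RevScapTKO against RevDKO, Mup11 by 1.44 (adjusted p = 0.0447) and Mup14 by 2.01 (adjusted p = 4.91e-04). Mup22 and Mup10 were −0.69 and −0.70 in RevDKO against Control (adjusted p = 0.117 and 0.113), and fell by 0.68 and 0.69 in RevScapTKO against Control (adjusted p = 0.0310 and 0.0299), as did Mup15, Mup16, Mup18 and Mup19, 6 of the 11 in all. Many of these copies share windows with Mup1, Mup2, Mup7 and Mup17, so their values are not independent of those. Of all genes, 2.43% fell in RevDKO against Control, 13.5% rose in RevScapTKO against RevDKO and 18.7% fell in RevScapTKO against Control.

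Growth hormone reaches the Mup genes through its receptor and STAT5b, and other factors set their sex bias. Of 15 genes measured from that signalling list, none was called in RevDKO against Control hepatocytes, beside 4.43% of all genes. The list median was 0.03 beside −0.01 for all genes. The 3 of smallest p were Stat5b, the main male-pattern STAT (0.24, adjusted p = 0.138), the phosphatase gene Ptpn1 (−0.33, adjusted p = 0.163) and the IGF carrier gene Igfbp3 (0.55, adjusted p = 0.258). In RevScapTKO against RevDKO 1 of 15 was higher and 2 lower, beside 13.5% and 12.7% of all genes. The phosphatase gene Ptpn2 rose by 0.29 (adjusted p = 0.0402), and the receptor gene Ghr (−0.37, adjusted p = 0.0450) and Igfals, which encodes a carrier subunit of IGF1 (−0.39, adjusted p = 0.0478), were lower. Against Control, Igfals fell by 0.57 and Ptpn2 rose by 0.36 in RevScapTKO.

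Regulators known to act on Mup or sex-biased genes were lower rather than higher where they were called. In RevDKO against Control 2 of 13 fell (2.43% of all genes), Esr1, the oestrogen receptor α gene (−1.14 ± 0.19, adjusted p = 1.13e-04), and Cebpb, a liver-enriched factor (−0.60, adjusted p = 0.0273). In RevScapTKO against RevDKO, Tox fell by 1.27 and the hepatocyte factor gene Cebpa by 0.41. In RevScapTKO against Control 7 of 13 fell (18.7% of all genes), led by Esr1 (−1.62), Tox (−1.58) and Cebpa (−0.72). The list median was −0.56 beside −0.04 for all genes. In that comparison hepatocyte markers fell in 3 of 12 and macrophage markers rose in 12 of 12, and their part was not tested.

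Male-biased genes outside the family did not move as one block. In RevDKO against Control 0 of 20 rose and 4 fell, among them the fatty acid hydroxylase gene Cyp4a12a (−1.92, adjusted p = 3.81e-08), Susd4 (−1.39) and the glutathione transferase gene Gstp1 (−0.72). In RevScapTKO against RevDKO 5 of 20 rose and 5 fell, with Gstp1 higher by 1.18 and Cyp4a12a lower by 1.85. Against Control 4 rose and 6 fell in RevScapTKO, the complement gene C6 rising by 1.01 and Cyp4a12a falling by 3.77. Of 11 female-biased genes measured, 1 rose and 3 fell in RevDKO against Control, with the steroid enzyme gene Cyp17a1 at 3.10, the thioesterase gene Acot3 at −3.56 and the hydroxylase gene Cyp4a10 at −1.73. In RevScapTKO against RevDKO 1 rose and 4 fell, with Cyp2a4 higher by 4.603 ± 0.78 (adjusted p = 6.28e-05), and against Control 3 rose and 6 fell. Of all genes, 2% rose and 2.43% fell in RevDKO against Control. The shares were 13.5% and 12.7% in RevScapTKO against RevDKO, and 17.3% and 18.7% in RevScapTKO against Control.

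Among other lipocalin relatives, 1 of 11 rose and 1 fell in RevDKO against Control, the fatty acid carrier gene Fabp5 (1.04, adjusted p = 0.0247) and the acute phase gene Orm3 (−1.37, adjusted p = 0.0354). In RevScapTKO against RevDKO 2 rose and 4 fell, including Lcn2, an iron-siderophore carrier gene of acute inflammation (1.93, adjusted p = 0.0143), and Orm1 (−2.14). Against Control 1 rose, the odorant-binding lipocalin gene Obp2a by 3.86, and 3 fell in RevScapTKO, Orm1 by 2.74 and the liver fatty acid carrier gene Fabp1 by 1.22. Of all genes, 2% rose and 2.43% fell in the first comparison, 13.5% and 12.7% in the second, and 17.3% and 18.7% in the third.

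Which genes ran most like each member was described by Pearson's r of log2(RPKTM + 1) over the 36 hepatocyte libraries, which share genotype and time groups. Within the family, r was 0.90 for Mup2 and Mup17, 0.87 for Mup1 and Mup3, 0.85 for Mup1 and Mup7, 0.83 for Mup20 and Mup21, and −0.42 for Mup17 and Mup20. After the mean of each genotype and time was removed, the last became 0.21, and Mup1 with Mup3 stood at 0.93. Outside the family, the most similar gene was Hsd3b5, a male-biased steroid reductase gene, for Mup1 (0.87) and the deiodinase gene Dio1 for Mup17 (0.85). Mup2 and Mup7 were both closest to the unnamed gene model Gm2083 (0.81 and 0.80), and Mup3 to Fbxo8 (0.87). Mup20 was closest to the collagen gene Col6a5 (0.89, but 0.18 after group means were removed) and Mup21 to the odorant-binding lipocalin gene Obp2a (0.82).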

How the data were processed

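RNA sequencing of 96 libraries (4 genotypes, 2 cell types, 4 times, 3 libraries a group) was used. The authors removed ribosomal RNA, aligned reads to mm9 with STAR and counted transcripts with HOMER. The deposited values are RPKTM, an RPKM-type unit scaled to the library total, quantile normalized within each of 4 tables. Versions, the treatment of multi-mapping reads and the strand setting are not given in the sources used here, and depth is unknown. The labels do not say that libraries of a group came from separate mice, so p-values measure the spread between these libraries.

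Each symbol was represented by its transcript of highest mean. Genes above 5 RPKTM in at least 3 libraries were tested on log2(RPKTM + 1), a scale that understates changes of low genes, with limma 3.58.1 (R 4.3.3). All 3 genotypes of a cell type shared 1 fit, and p was adjusted over all genes (Benjamini-Hochberg, threshold 0.05). A gene was called rhythmic by JTK_CYCLE with a time-mean ratio of at least 1.5. Gene pairs were tested by exact permutation, and sequences were compared with Biopython 1.88 on mm9 with GENCODE vM1. Tables were handled with pandas 2.3.3 and numpy 2.4.6 under Python 3.11.15, tests used scipy 1.17.1 and plots matplotlib 3.10.9. The scripts were tested on simulated data. Named were the 7 members, the 3 genes of smallest p in each list (1 of them is not reported here), the 3 most similar genes by correlation and the 3 other Mup symbols of highest mean. Mup11, Mup14, Mup15, Mup16, Mup18 and Mup19, Obp2a and Cyp2a4 were named in some comparisons after their values were seen. Members and lists were chosen with earlier results of these data known.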

Additional observations from a re-analysis of the deposited data

Results flagged for a closer look

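Mup2 in macrophages moved in opposite directions at 2 times between RevScapTKO and RevDKO. At ZT16 all 3 RevScapTKO libraries (4.21 to 9.65 RPKTM) were above all 3 RevDKO libraries (0 to 1.40), a difference of 2.57 on the log2 scale. At ZT22 all 3 RevScapTKO libraries (2.52 to 4.53 RPKTM) were below all 3 RevDKO libraries (5.05 to 10.8), a difference of -0.9969. The difference between the times was not tested. These 2 separations were picked from many combinations of member, time, comparison and cell type. With 3 libraries a side some genes separate by chance, and the share of all genes that do is not given. The levels are low, and Mup2 has no 50-base window of its own.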

How the results depend on the processing

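Quantile-normalized values carry no depth, so counting error could not be given, and the 4 near-identical genes cannot be separated where reads are shared. Without a filter on low values, 1 member in place of 3 was called in RevDKO against Control hepatocytes. With those 2 genotypes alone in the fit, 3 single-time calls were made in place of 0. With the other-cell score as covariate, 2 members in place of 4 were called in RevScapTKO against Control hepatocytes, and Mup3 turned from -0.99 to 0.074. Mup3 in that comparison also lost its call without the filter and in the fit of 2 genotypes (adjusted p = 0.0712 and 0.0626). Rhythmic member series numbered 3 with the series entered once and 0 by the limma 24 h test, in place of 20, Mup7 in RevDKO hepatocytes being 1 of the 3 and of the 20. The causes were not tested. Mup17 against Control moved with the pseudocount, to -3.20 and -2.89 in hepatocytes with 10 RPKTM, and in macrophages to -4.84 and -3.78 with 0.1 and to -0.86 and -0.81 with 10.

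Leaving out 1 library at a time gave 34 to 39 differing pairs (37 with all). Day-average calls in hepatocytes were 2 to 3 for RevDKO against Control, 2 to 3 for RevScapTKO against RevDKO and 3 to 4 for RevScapTKO against Control. In macrophages they were 0 to 2, 1 to 2 and 2 to 3. Single-time calls in hepatocytes were 0 to 0, 3 to 7 (7 without RevScapTKO ZT22 replicate 2) and 7 to 11 (9 with all libraries, 1 of them Mup7 at ZT4). Rhythmic series, recomputed by the limma 24 h test at an unadjusted p and not by JTK_CYCLE, numbered 19 to 26 (24 with all libraries). Mup7 in RevDKO and RevScapTKO hepatocytes is among the 24, and the share of all genes at that p is not given. The number shows stability only and is no result about the members. Changed rhythms were 0 to 0. Replicate numbers did not pair the samples, since same-numbered deviations had median correlations of 0.02 to 0.14 and not every pair was over 0.1. With the replicate block, single-time calls for RevScapTKO against RevDKO were 7 in place of 4.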
